A study of Mus musculus with 58 samples.

Results

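Integrins are transmembrane adhesion receptors built from 1 alpha and 1 beta subunit, and the pairing sets which matrix protein or cell surface ligand is bound. On hematopoietic stem cells (HSCs) they anchor the cell to its bone marrow niche, and several of them also mark stem cells or their platelet-forming descendants. The 9 subunits described here are Itgb3 (beta3, CD61), Itga2b (alphaIIb, CD41), Itgav (alphaV, CD51), Itga6 (alpha6, CD49f), Itgb1 (beta1, CD29), Itga4 (alpha4, CD49d), Itga5 (alpha5, CD49e), Itgb2 (beta2, CD18) and Itgal (alphaL, CD11a), which were 9 of 55376 genes in the RNA count files. They were taken by symbol, and Itgb3 was chosen by its RNA counts in the diet groups, which had been seen to differ with caloric restriction (CR) in opposite directions in old and in young mice. Its levels in the diet groups are therefore given as a description with no test, and the tests in those groups cover the other 8 subunits.

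RNA-seq was performed on HSCs of male C57BL/6 mice sorted as Lin- Sca-1+ Kit+ CD34- Flk2- CD150+ cells. The diet groups were old mice of 24 to 26 months with free access to food (OAL, n = 4), old mice under lifelong 40% CR (OCR, n = 4) and such mice after 4 weeks of refeeding (OCRRF, n = 2). The young counterparts, at 3 to 4 months, had free access to food (YAL, n = 4), were restricted by 20% for a week and then by 40% for 3 weeks (YCR, n = 4), or were restricted and then refed for 4 weeks (YCRRF, n = 4). A second set came from aged HSCs that were transduced with shRNA, transplanted at about 500 cells into CD45.1 recipients and sorted again as CD45.2+ LSK CD48- CD150+ donor cells. It held a Kdr shRNA (GFP_Kdr, n = 4) with a scramble control (GFP_Scramble, n = 2), and the Kdr shRNA together with 1 of 2 Bmpr1a shRNAs (Double_KdrBmpr, n = 4) with a double scramble control (Double_Scramble, n = 2). Because sort, extraction and sequencer differed between the 2 sets, levels are not compared across them. Chromatin was available from OCR and OCRRF for ATAC-seq (4 and 2 libraries), from OCR for H3K4me3 and H3K27me3 (2 libraries each) and from OAL, OCR and OCRRF for PU.1 ChIP-seq (2 each).

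Diet libraries held 11102898 to 36579392 counts and transplant libraries 35657999 to 44780217. Olfactory and vomeronasal receptor genes, 1736 genes that HSCs are not known to use, summed to 530 to 752 CPM (counts scaled to the size of the library) in OAL, 561 to 1257 in OCR, 1161 to 1486 in OCRRF and 66.5 to 474 in the young groups. This background was thus higher in every old library than in the young ones. It had its highest median in OCRRF, whose range held OCR replicate 3 (1257). A panel of 15 lineage markers summed to 86.2 to 252 CPM in OAL and 55.1 to 142 in OCR, to 119 to 192 in OCRRF, and to 52.5 to 487 in YAL, 59.8 to 288 in YCR and 172 to 1102 in YCRRF, the group with the highest median. Cd3d and Cdh5, markers of T cells and endothelium, stayed at group means of 0.05 to 0.93 CPM in OAL, OCR and YAL. Itgam, the CD11b subunit that the sort removes, was between 1.23 and 3.50 CPM in every diet group mean. YCRRF replicate 3 stood apart from its group, with a chi-square per degree of freedom over gene counts of 153 to 336 against the other 3 libraries, where every other pair of RNA libraries of a group had at most 56.5. The part of these signals in the results was not tested.

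The sequences at which PU.1, an ETS family factor of stem and myeloid cells, was found at these genes are shown first, since they are the binding sites of a named factor in these genes. Within the span from 10 kb upstream of the RefSeq start site to the gene end, PU.1 peaks lay at Itgav, Itga6, Itga2b and Itga4 and at none of the other 5 subunits, Itgb3 included. The share of all genes with a peak in such a span was not counted. The 101 bases around the median summit of each are given in mm10, on the strand of the gene, and capitals mark GAGGAA or its reverse complement TTCCTC, the core of the PU.1 site.

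Itgav: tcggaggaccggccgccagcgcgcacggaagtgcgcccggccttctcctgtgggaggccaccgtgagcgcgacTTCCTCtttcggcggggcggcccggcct
Itga6: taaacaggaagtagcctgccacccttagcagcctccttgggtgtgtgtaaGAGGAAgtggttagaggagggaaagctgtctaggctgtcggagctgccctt
Itga2b: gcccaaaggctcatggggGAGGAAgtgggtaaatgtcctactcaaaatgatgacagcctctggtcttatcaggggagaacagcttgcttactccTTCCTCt
Itga4: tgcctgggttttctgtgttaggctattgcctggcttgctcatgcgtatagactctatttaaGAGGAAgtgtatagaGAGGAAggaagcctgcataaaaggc

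The Itgav window, chr2:83724317-83724417, covers the start site and the beginning of the first exon. The Itga6 window, chr2:71814189-71814289, lies in an intron, 27300 bases after the RefSeq start site used here. The GENCODE annotation begins Itga6 further upstream, at 71745616. A peak of OCR replicate 1 just before that position, at 71744928 to 71745149 (fold enrichment 5.08), lay outside the span. The Itga2b window, chr11:102470170-102470270, and the Itga4 window, chr2:79254802-79254902, lie upstream of their genes, at -337 and -574 bases. All 4 windows hold the motif, as did 50.3% to 54.3% of all 101-base windows at PU.1 summits in the 6 libraries. In the RefSeq promoter table (GRCm38.p6), 5 of the 9 subunits had an entry, and the 250 bases upstream of the start held the motif 2 times for Itga2b and Itgav, 1 time for Itgb1 and Itga5, and not for Itga4. Of all 32851 promoters of this length 23.3% held it on either strand.

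Within the span, the PU.1 peaks at Itgav and Itga6 were the strong ones. At the Itgav start site the fold enrichment given by MACS2 was 14.5 and 9.60 in OAL, 17.0 and 14.7 in OCR, and 11.0 and 10.4 in OCRRF, with summits between -60 and 12 bases from the start. In the Itga6 intron it was 13.1 and 14.5 in OAL, 14.2 and 12.6 in OCR, and 12.5 and 8.75 in OCRRF. Both peaks were thus called in 6 of 6 libraries. At Itgav both OCR values lay above both OAL values, by a margin of 14.7 to 14.5, and at Itga6 the 2 groups overlapped, and with 2 libraries a group no test was made. The peak upstream of Itga2b was weaker, with a fold enrichment of 5.70 and 5.85 in OAL, 6.43 and 6.89 in OCR and 6.09 in OCRRF replicate 1, and had no call in OCRRF replicate 2. The peak upstream of Itga4 was called in 3 libraries, OAL replicate 1 (5.91), OCR replicate 2 (7.85) and OCRRF replicate 1 (6.67). Another Itga4 peak lay outside the span, with summits from -27224 to -27188 bases. It was called in both OAL libraries (7.22 and 8.30) and both OCR libraries (11.3 and 6.20), and in no OCRRF library. A further Itga2b peak, at -8972 bases, was called in OCR replicate 2 (5.32). Peaks were called per library, the number of all PU.1 peaks ran from 2262 in OCRRF replicate 2 to 5464 in OCR replicate 1, and the replicates used different antibodies, so a missing call is not a missing site.

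Itgb3 pairs with Itga2b to form the platelet fibrinogen receptor and with Itgav to form the vitronectin receptor. It lies on chromosome 11 at 104608000 to 104670476 on the plus strand. Its RNA was 360, 390, 305 and 333 CPM in the 4 OAL libraries, 156, 203, 198 and 223 in OCR, and 245 and 224 in OCRRF. In young mice it was 68.2, 103, 121 and 110 CPM in YAL, 157, 167, 99.5 and 153 in YCR, and 145, 129, 66.2 and 121 in YCRRF. Every OAL library was above every other diet library, and OCRRF lay just above OCR with no overlap. The order of the group means was YAL (101 ± 22.9, SD), YCRRF (115 ± 34.2), YCR (144 ± 30.3), OCR (195 ± 28.2), OCRRF (235 ± 15.0) and OAL (347 ± 36.4). Neighbours from YAL up to OCR overlapped, so the young groups cannot be ordered beyond their spread.

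As log2 fold changes from the count model, Itgb3 was -0.82 (SE 0.098) for OCR against OAL and 0.53 (SE 0.19) for YCR against YAL, a difference between the ages of -1.35 (SE 0.23). These 3 values come from the contrasts that put the gene on the list. OAL against YAL was 1.80 (SE 0.15), and shares the control groups with them. Refeeding gave 0.21 (SE 0.12) for OCRRF against OCR and -0.34 (SE 0.23) for YCRRF against YCR, or -0.15 (SE 0.17) without YCRRF replicate 3. OCRRF was still at -0.58 (SE 0.088) against OAL. At 99.5 CPM YCR replicate 3 lay within the YAL range.

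**Figure D1:**
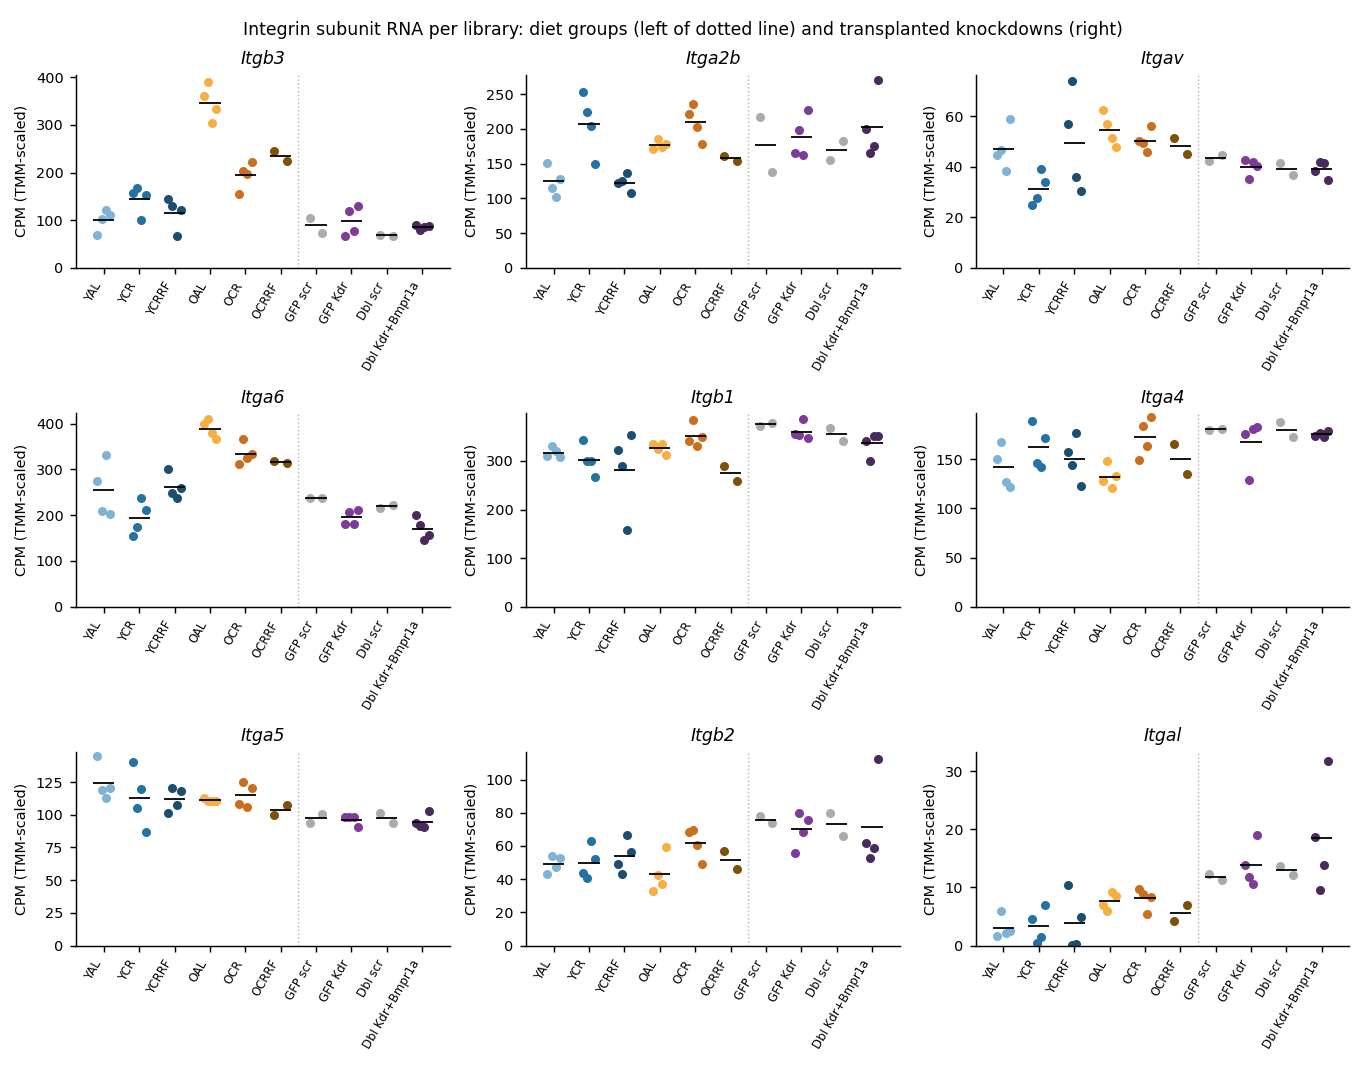
RNA of the 9 integrin subunits in each library, as CPM scaled by TMM (y axis), for the 6 diet groups and, right of the dotted line, the 4 transplant groups scaled on their own. Points are libraries and lines group means. Itgb3 in OAL (305 to 390) stands above all other diet libraries, Itga6 is higher in OAL than in YAL, and Itgal is the lowest subunit throughout.

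Levels were also read per kilobase, with all annotated exons of a gene as its length, to set genes side by side. On this scale the mean beta3 level was above the sum of its alpha partners in OAL and OCRRF and below it in the other 4 diet groups. The length of the transcripts in use was not measured, so where a ratio crosses that sum depends on the length taken. In OAL Itgb3 was at 58.8 ± 6.17 CPM per kb (SD) and the sum of Itga2b and Itgav at 37.5 ± 1.23, and the beta subunit was above its partners in 4 of 4 libraries. In OCR it was at 33.0 ± 4.78 against 43.0 ± 4.35, above in 0 of 4 libraries, with ratios from 0.584 to 0.9999, so 1 library was level. In OCRRF it was at 39.8 against 33.3, above in 2 of 2, with ratios of 1.17 and 1.21. In YAL, YCR and YCRRF it was below the partners' sum in all 12 libraries, with ratios between 0.363 and 0.921. Because Itgb3 entered by its own diet response, these ratios are a description.

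Itga2b, the alpha partner that is found only with beta3 and marks megakaryocyte-biased stem cells, was 171, 186, 174 and 178 CPM in OAL and 221, 235, 203 and 178 in OCR. In young mice it was 151, 115, 102 and 128 CPM in YAL, 252, 225, 203 and 150 in YCR, and 122, 125, 136 and 108 in YCRRF. The 2 OCRRF libraries had 161 and 154. The restricted groups thus held the highest mean levels at both ages, with 1 library in each (178 and 150 CPM) inside the range of the freely fed mice. Both refed groups lay below every restricted library. With 2 OCRRF libraries such a separation arises easily by chance, and the share of all genes so separated was not counted. On refeeding of old mice Itga2b fell by 0.47 on the log2 scale (SE 0.13, adjusted p = 0.0258, edgeR quasi-likelihood). The other steps did not pass: 0.26 (SE 0.085, adjusted p = 0.0807) for OCR against OAL, 0.75 (SE 0.16, adjusted p = 0.101) for YCR against YAL and -0.77 (SE 0.16, adjusted p = 0.212) for YCRRF against YCR. The last 2 passed in DESeq2, with adjusted p of 0.000394 and 0.00299. In these 2 comparisons DESeq2 called 454 of 18680 and 280 of 19535 genes.

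The other alpha partner of beta3, Itgav, which also pairs with beta1, ranged from 24.7 CPM in a YCR library to 74.1 in a YCRRF library. It was 62.7, 57.0, 51.3 and 48.0 in OAL and 50.1, 49.3, 46.0 and 56.0 in OCR, so the old groups overlapped. YAL had 44.6, 46.8, 38.5 and 58.8 CPM and YCR 24.7, 27.4, 39.2 and 34.1, a log2 fold change of -0.57 (SE 0.20, adjusted p = 0.358) with 1 YCR library inside the YAL range. On refeeding the young mice it was 0.63 (SE 0.29, adjusted p = 0.68), with YCRRF libraries from 30.5 to 74.1 CPM.

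In OCR against OAL, which asks what lifelong restriction does in old HSCs, 2 of the 8 tested subunits passed (adjusted p below 0.05 and fold change above 1.2) and both were higher, beside 5.57% of all 27150 genes called and 2.54% called higher. Itga4, the alpha chain of the VCAM-1 receptor that holds HSCs in the marrow, was 128, 148, 121 and 133 CPM in OAL and 149, 184, 163 and 193 in OCR. These groups were just apart, and Itga4 rose by 0.40 on the log2 scale (SE 0.090, adjusted p = 0.00509). Itgb2, the common beta chain of the leukocyte integrins, was 32.6, 42.5, 36.9 and 59.4 CPM in OAL and 68.1, 69.7, 60.5 and 49.0 in OCR. It rose by 0.54 (SE 0.13, adjusted p = 0.0104) although OAL replicate 4 and OCR replicate 4 crossed over, and the call was lost in DESeq2 (adjusted p = 0.0946) and without OCR replicate 2 (0.0638), OAL replicate 1 (0.0568) or OAL replicate 3 (0.0618). Itga6, a laminin receptor chain of stem cells, was lower in each OCR library (311 to 366 CPM) than in each OAL library (367 to 409), at -0.20 (SE 0.079, adjusted p = 0.163). The share of all genes so separated was not counted. The median over the 9 subunits was 0.10, beside 0.02 over all genes.

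Among leukocyte and blood genes in the same comparison, Cd68, a macrophage marker, was higher at 0.82 (SE 0.17) and Itgam at 0.99 on a mean of 2.44 CPM, while Hba-a1 and Hbb-bs, the adult globins, were lower at -2.17 and -2.22. Of the 15 lineage markers 14 could be tested, and 1 was higher and 2 lower, beside 5.57% of all genes called. Csf1r, another macrophage marker of that panel, averaged 13.1 CPM in both groups. Itgal, which needs Itgb2 as its partner, was 7.04, 6.02, 9.24 and 8.49 CPM in OAL and 9.75, 8.94, 5.39 and 8.36 in OCR. Per kilobase the Itgb2 level was 8.60 to 15.2 times that of Itgal in OAL and 12.6 to 24.1 times in OCR. In bulk RNA more cells of a type and more RNA per cell cannot be told apart.

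Short-term restriction in young mice (YCR against YAL) gave 0 calls among the 8 subunits in edgeR, 2 at an unadjusted p under 0.05 (Itga2b and Itgav) and 1 in DESeq2 (Itga2b). Of all 18680 genes, 68 (0.364%) were called in edgeR and 454 in DESeq2. Itga4 was 142 ± 21.4 CPM in YAL and 162 ± 22.0 in YCR, and Itgb2 49.2 ± 4.95 and 49.7 ± 10.1. Old and young responses to CR were also set against each other, and this interaction was called for 0 of 8 subunits in edgeR and in DESeq2, with 0.0318% of 28328 genes called. At an unadjusted p under 0.05 it held 2, Itga2b at -0.50 (SE 0.19, adjusted p = 0.458) and Itgav at 0.47 (SE 0.22, adjusted p = 0.549). The larger Itga4 and Itgb2 values in old mice are thus not shown to differ between ages.

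Refeeding after lifelong CR (OCRRF against OCR) gave 2 calls among the 8 subunits, both lower, Itga2b and Itgb1, with 3.41% of 32577 genes called, 0.694% higher and 2.71% lower. Itgb1, the beta chain of the fibronectin, laminin and VCAM-1 receptors of HSCs, was 341, 383, 330 and 349 CPM in OCR and 289 and 259 in OCRRF. It fell by 0.41 on the log2 scale (SE 0.12, adjusted p = 0.0452). Itgal was at -0.60 (SE 0.24, adjusted p = 0.188) and Itgb2 at -0.32 (SE 0.14, adjusted p = 0.237). Against OAL, which shares the refed libraries, Itga6 fell by 0.31 (SE 0.067, adjusted p = 0.0276) and Itgb1 by 0.27 (SE 0.068, adjusted p = 0.0387), beside 4.14% of 31816 genes called, 2.48% lower and 1.66% higher, and Itga2b was at -0.18 (SE 0.069, adjusted p = 0.11). Itga6 was 318 and 314 CPM in OCRRF, below every OAL library.

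These refeeding calls rested on 2 libraries and on the scaling. With TMM factors from genes of at least 5 CPM the median of all genes moved by 0.13 for OCRRF against OCR and by 0.14 against OAL, and neither comparison called a subunit, although Itga2b (-0.33) and Itgb1 (-0.28) against OCR kept their sign. Under this scaling the calls over all genes were 341 higher and 573 lower against OCR (226 and 884 before), and 754 higher and 54 lower against OAL (528 and 788 before). Leaving out either OCRRF library, or OCR replicate 2, also ended both calls against OCR.

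In young mice YCRRF against YCR called 0 of 8 subunits in edgeR, 3 at an unadjusted p under 0.05 and 1, Itga2b, in DESeq2. Of all 19535 genes, 2 (0.0102%) were called in edgeR and 280 in DESeq2. Itga6 was 155, 174, 237 and 211 CPM in YCR and 300, 249, 238 and 260 in YCRRF, groups that were barely apart, at 0.41 (SE 0.15, adjusted p = 0.548). Itgb1 was 322, 290, 157 and 353 CPM in YCRRF, where the low value is that of replicate 3, the library that stood apart, which also had the lowest Itgb3 of the group. Without it YCRRF against YCR still called 0 of 8, with Itga2b at -0.83 (SE 0.16, adjusted p = 0.102) and Itga6 at 0.45 (SE 0.15, adjusted p = 0.309). Against YAL, YCRRF called 0 of 8 in edgeR and in DESeq2, with 0 at an unadjusted p under 0.05 and 0 of 19334 genes called.

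With age (OAL against YAL) 3 of the 8 subunits rose, beside 14.8% of 23525 genes called and 6.89% called higher. Itga6 was 275, 210, 331 and 203 CPM in YAL and 400, 409, 380 and 367 in OAL, with no overlap, and rose by 0.62 on the log2 scale (SE 0.14, adjusted p = 0.0135). Itga2b rose by 0.52 (SE 0.11, adjusted p = 0.0107), again with no overlap, and the share of all genes so separated was not counted. Itgal rose by 1.33 (SE 0.39, adjusted p = 0.0416) from 1.65, 5.95, 2.14 and 2.58 CPM in YAL to 7.04, 6.02, 9.24 and 8.49 in OAL, and this call was lost when any single library other than YAL replicate 2 was left out. Itga5, the fibronectin receptor alpha chain, was 145, 119, 113 and 120 CPM in YAL and 113, 111, 111 and 110 in OAL and did not pass. The receptor gene background above was also higher in OAL than in YAL, and age and library background cannot be told apart here. Of the 15 lineage markers 13 could be tested with age. In OAL 3 were lower, including Mpo (-6.20) and Cd79a (-4.23), markers of myeloid and B cells, and 1 was higher, Cd3e, a T cell marker, from 0.016 CPM in YAL to 0.67 in OAL. The globins Hba-a1 and Hbb-bs averaged 6.61 and 13.3 CPM in YAL and 31.7 and 70.7 in OAL and did not pass (adjusted p = 0.0543 and 0.0842). Of 6 genes that the sort gates against, 5 could be tested with age, and 2 were higher and 2 lower. Their median log2 fold change was -0.46. Il7r, a lymphoid gate marker among them, rose from 0.037 to 0.64 CPM.

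**Figure D2:**
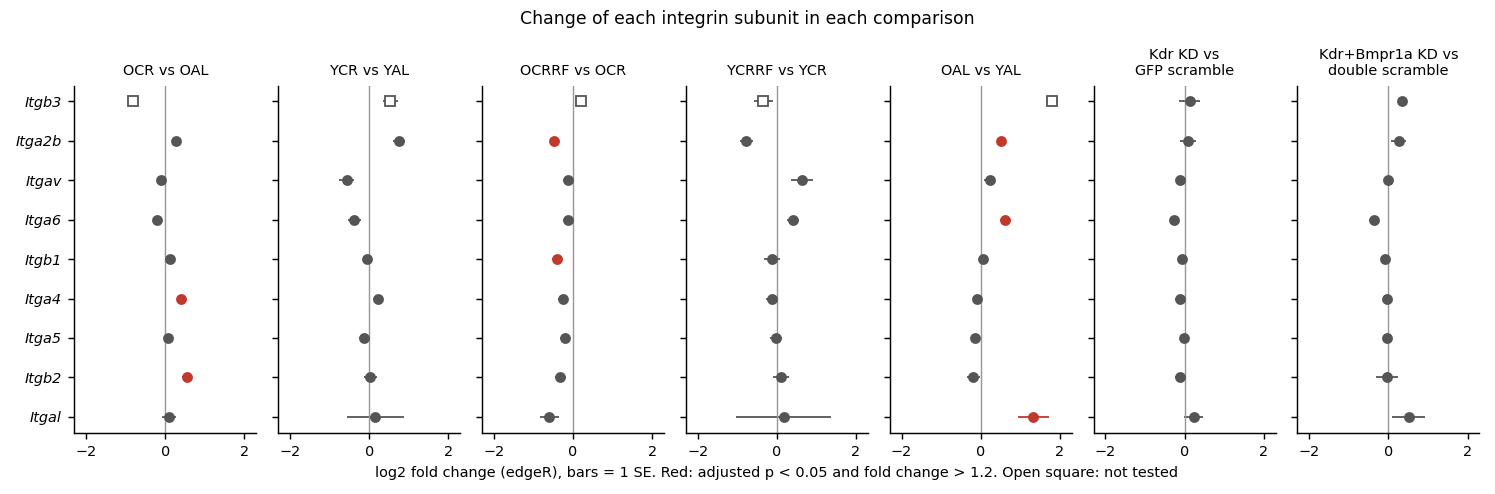
Log2 fold change (x axis) with 1 SE for each subunit in 7 comparisons. Red points passed an adjusted p of 0.05 with a fold change above 1.2, grey points did not, and open squares mark Itgb3 in the diet groups, where it was not tested. Itga4 and Itgb2 are red for OCR against OAL, Itga2b and Itgb1 for OCRRF against OCR, Itga2b, Itga6 and Itgal for OAL against YAL, and none for either knockdown.

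Among the subunits, Itgb1 had the highest level per kilobase in every group, from 67.2 CPM per kb in OCRRF to 86.0 in OCR among the diet groups, and from 82.4 in Double_KdrBmpr to 92.0 in GFP_Scramble among the transplant groups. Itgal was the lowest, from 0.47 in YAL to 1.23 in OCR and, in the transplants, from 1.79 in GFP_Scramble to 2.81 in Double_KdrBmpr, and rested on 2 to 1172 reads a library. Itgb3 ranked second in OAL (58.8, above Itga6 at 43.1 and Itga2b at 32.5) and in OCRRF (39.8, above 35.0 and 28.9), and held ranks 3 to 5 in the other diet groups. The sum of the alpha chains that pair with beta1 in this list (Itgav, Itga4, Itga5 and Itga6) was 80.2 ± 3.25 CPM per kb in OAL beside 80.2 ± 2.55 for Itgb1, and 68.0 ± 6.58 beside 77.6 ± 2.58 in YAL.

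Across the 22 diet libraries, the genes whose log2 CPM followed Itgb3 most closely, of 12326 genes at 5 CPM or more, were Irf2bpl (Pearson r = 0.918), Sbspon (0.903), Nupr1 (0.898), Gm10419 (0.887) and Cavin2 (0.885). Sbspon averaged 6.03 CPM in YAL, 72.8 in OAL and 33.5 in OCR, and Cavin2 132, 286 and 240. Of the other subunits Itga6 came nearest, with r = 0.617 at rank 407, then Itgal (0.539) and Itgb1 (0.404), and the lowest was Itgb2 (-0.342). The 22 points are libraries of 6 groups that differ in age, depth and background, and the Itgb3 levels are those by which the gene was chosen, so these values are a description.

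Of 26 genes for integrin activation and adhesion complexes, 5 were called in OCR against OAL, beside 5.57% of all genes: Syk (0.50, SE 0.093) and Rasgrp2 (0.36, SE 0.089), a kinase and a Rap1 exchange factor, were higher, and Ptk2b (-0.46, SE 0.077), Src (-0.52, SE 0.15) and the low Fermt2 were lower. On refeeding of old mice 4 of these 26 fell, beside 3.41% of all genes called and 2.71% lower, Syk (-0.68, SE 0.13), Fyn (-0.45, SE 0.13), Ptk2 (-0.46, SE 0.13) and Lims1 (-0.45, SE 0.13). With age 25 could be tested, 4 of which fell, Zyx (-0.53), Syk (-0.64), Fermt3 (-0.32) and Parvg (-0.34), and 1 of low level rose, a share near the 14.8% of all genes called. The median log2 fold change of the list was 0.07 for OCR against OAL and -0.17 for OCRRF against OCR, where all genes had 0.02 and 0.11.

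Of 17 further integrin subunits only Itgam was called in OCR against OAL, a share near the 5.57% of all genes, and with age, beside 14.8% of all genes, Itga9 (-1.64, SE 0.38) and Itgb5 (-2.25, SE 0.38) were lower and 2 subunits of low level higher. Itgb7, the partner of Itga4 in lymphoid cells, averaged 32.1 CPM in OAL, 40.1 in OCR and 36.4 in YAL. Among 19 integrin ligands, of which 18 could be tested, Fn1 (fibronectin) was higher in OCR than OAL at 0.68 (SE 0.20) and Lama5 (a laminin chain) lower at -0.62 (SE 0.14).

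Of 16 megakaryocyte and platelet genes, 15 could be tested in the comparisons of old mice and with age. Beside 5.57% of all genes called, 4 were lower in OCR than in OAL, including Selp (-0.52, SE 0.096), Clec1b (-0.59, SE 0.17) and Nfe2 (-0.27, SE 0.080), and none higher. Genes that were not called went both ways. Pf4 averaged 28.2 CPM in OAL and 41.1 in OCR and Gp5 27.9 and 36.1, while Plek averaged 205 and 187. The median log2 fold change of the list was -0.11, beside 0.02 over all genes. With age 6 rose and 1 fell, beside 14.8% of all genes called and 6.89% higher. Those that rose include Selp (2.38, SE 0.089), Plek (1.22, SE 0.16) and Clec1b (0.99, SE 0.24). On refeeding of old mice, beside 3.41% of all genes called, 4 fell, Gp5 (-1.02, SE 0.16), Pf4 (-1.06, SE 0.23), Plek (-0.72, SE 0.13) and Gp9 (-0.58, SE 0.14), and Vwf rose by 0.51 (SE 0.14). The summed level of the 16 genes was 2897 to 3310 CPM in OAL and 2245 to 2612 in OCR, groups that did not overlap, as for Itgb3, and 2497 to 2652 in YCR against 2655 to 2794 in YAL.

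The knockdowns were read in a setting where the targets were low. Kdr, the VEGF receptor aimed at by the shRNA, was 1.93, 2.21, 3.28 and 2.03 CPM in GFP_Kdr and 6.04 and 6.07 in GFP_Scramble, and 1.24, 0.555, 1.60 and 1.35 in Double_KdrBmpr against 3.97 and 4.62 in Double_Scramble. Bmpr1a, a BMP receptor, was 4.44 and 0.656 CPM with its shRNA 1, 2.22 and 0.595 with its shRNA 2, and 5.21 and 4.43 in the control. The lineage marker panel summed to 423 to 1753 CPM in Double_KdrBmpr and 1336 to 2344 in its control, and to 435 to 1951 in GFP_Kdr and 200 to 960 in its control.

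Itgb3 was tested here, since the rule for its choice did not use these libraries. After Kdr knockdown it was 66.0, 118, 77.1 and 129 CPM against 105 and 73.9, a log2 fold change of 0.13 (SE 0.27, adjusted p = 0.913), whose sign turned without GFP_Kdr replicate 4 or GFP_Scramble replicate 2. After the double knockdown it was 90.2, 78.7, 84.9 and 88.4 CPM against 69.4 and 66.8, with no overlap and a log2 fold change of 0.33 (SE 0.072, adjusted p = 0.287). DESeq2 gave an adjusted p of 0.0078 for the same change, and called 332 of all 20072 genes. The levels in these transplanted cells were thus at 66.0 to 129 CPM in all 12 libraries.

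Itga6 was lower in each knockdown library than in its controls, at 182, 208, 181 and 211 CPM against 237 and 237 for Kdr and at 200, 179, 146 and 156 against 216 and 223 for the double knockdown. The log2 fold changes were -0.28 (SE 0.084, adjusted p = 0.392) and -0.36 (SE 0.12, adjusted p = 0.389). With 2 control libraries such a separation arises easily by chance. Its share over all genes was not counted, for Itga6 here or for Itgb3 after the double knockdown. Neither comparison called a subunit in edgeR. At an unadjusted p under 0.05 Kdr knockdown held 1 of 9, where 8.90% of all 20098 genes did, and the double knockdown 2 of 9, where 9.85% of 20072 did, while 0.0149% and 0.00498% of all genes were called after adjustment. DESeq2 called 0 and 1, beside 303 and 332 of all genes. In Double_KdrBmpr replicate 4 both leukocyte chains were at their highest, Itgb2 at 112 and Itgal at 31.7 CPM.

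At the chromatin level, all 9 start sites were covered by an ATAC consensus peak, and 75 peaks lay within the gene spans. The start site peak was at 76.1 ± 5.06 CPM (SD, n = 4 OCR libraries) for Itgav, 71.7 ± 1.34 for Itgb1 and 65.6 ± 1.34 for Itga4, but at 19.4 ± 2.86 for Itgb3, 21.9 ± 1.05 for Itga6 and 14.9 ± 1.31 for Itga2b, and at 6.49 to 9.53 for Itgb2, Itga5 and Itgal. The Itga6 intron peak that holds the PU.1 site was at 18.9 ± 1.03 CPM in OCR and 20.0 in OCRRF.

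Between OCRRF and OCR 0 of the 67 subunit peaks that could be tested passed in edgeR or in DESeq2 (adjusted p below 0.05, fold change above 1.5 and mean log2 CPM above 1.5), beside 0.221% of 123372 peaks called. At an unadjusted p under 0.05 were 6 of them, 8.96%, beside 11.7% of all peaks. The lowest adjusted p, 0.0802, belonged to a peak -9441 bases from the Itgav start, with 14.3, 15.5, 17.8 and 17.8 CPM in OCR and 23.0 and 20.6 in OCRRF (0.42, SE 0.12). At the Itgb1 start site OCR had 71.6, 73.5, 71.5 and 70.2 CPM and OCRRF 66.8 and 61.6, a log2 fold change of -0.16 (SE 0.065, adjusted p = 0.305). Over the 11 testable peaks of Itgb3 values ran from -0.41 to 0.53, with the start site at 0.09 (SE 0.12, adjusted p = 0.832).

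**Figure D3:**
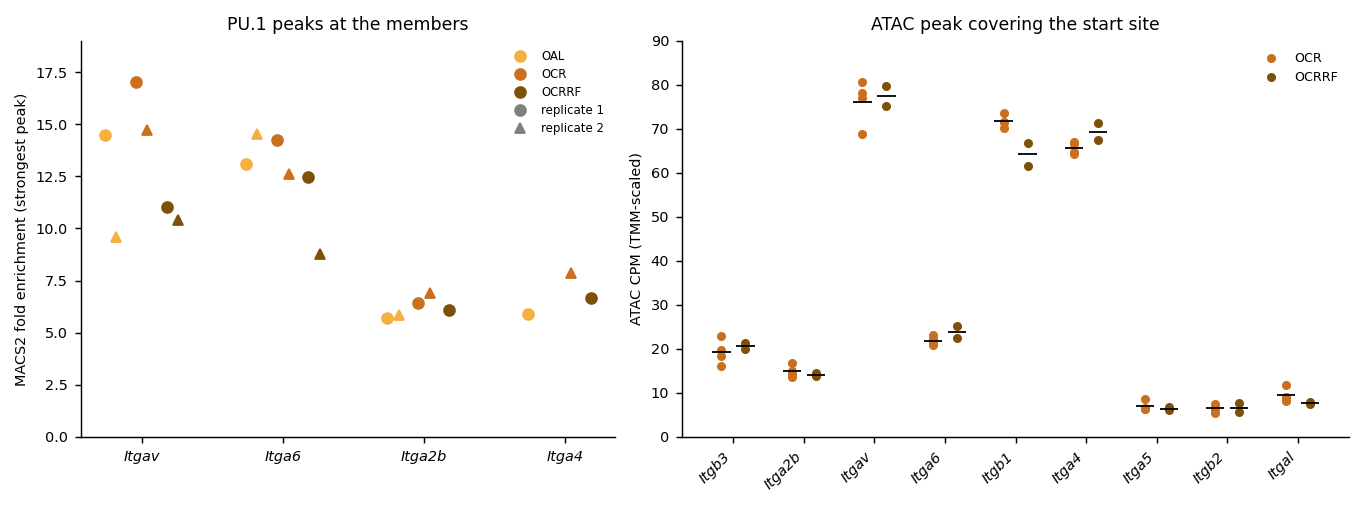
Left, MACS2 fold enrichment (y axis) of the strongest PU.1 peak within the 10 kb span at the 4 subunits with a peak, per library. Colours mark OAL, OCR and OCRRF and shapes the replicates. Itgav and Itga6 have points in all 6 libraries, from 8.75 to 17.0. Right, ATAC CPM in the peak over each start site, with points for libraries and lines for group means, where OCR and OCRRF lie close for every subunit.

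H3K4me3, a mark of active promoters, was measured as the mean signal per base in 750 bp after the start site in OCR. In the 2 libraries Itga5 was at the percentiles 98.8 and 97.4 of 31552 transcripts, Itgb1 at 95.2 and 95.8, Itga4 at 93.6 and 91.0, Itgav at 90.5 and 92.5, Itgb3 at 88.9 and 88.5 and Itga6 at 83.3 and 77.5. Itga2b (46.5 and 47.7) and Itgb2 (49.0 and 49.3) were near the median of all transcripts and Itgal (37.4 and 40.9) below it, while the RNA of Itga2b and Itgb2 was at 38.3 and 20.2 CPM per kb in OCR. H3K27me3, a mark of silenced genes, was read in 2000 bp and was below the median for all 9 subunits in both libraries, with the highest at 45.6 (Itgb2, replicate 1). The 2 libraries differed widely in this low range, as at Itgb3 (1.98 and 35.4).

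**Figure D4:**
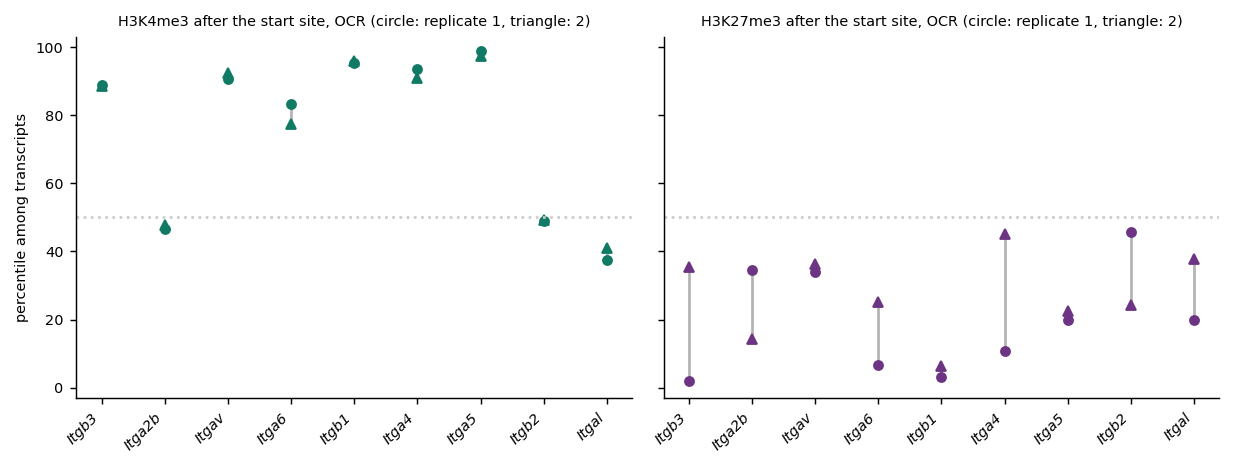
Percentile of each subunit (y axis) among 31552 transcripts for H3K4me3 (left) and H3K27me3 (right) after the start site in the 2 OCR libraries, circles for replicate 1 and triangles for replicate 2. For H3K4me3, 6 subunits lie above 77 and 3 below 50, and for H3K27me3 all 9 lie below 46.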

How the data were processed

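RNA-seq, ATAC-seq, histone and PU.1 ChIP-seq values were used as the authors deposited them, without the reads. For RNA the authors used trim galore (cutadapt) for trimming and STAR for alignment to mm10, and deposited featureCounts counts per GENCODE gene. Strand and multi-mapping settings are not given in the sources used here, so reads of genes overlapping Itga4, Itga5, Itga6, Itgav and Itga2b cannot be told apart. For ATAC-seq the authors deposited counts in 131918 consensus peaks (BWA, MACS2). For histone marks they deposited a signal per promoter window, and for PU.1 MACS2 peaks per library with a score, a fold enrichment ratio, and p-value and q-value as -log10. Read depths of the ChIP libraries are given in the paper's reporting summary and were not used here to scale signal or peaks. Of 58 samples, 8 (OAL ATAC and histone) were not analysed here. Columns of no mapped sample numbered 0.

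In R 4.3.3, edgeR 4.0.16 filtered each comparison with filterByExpr, scaled with TMM on full library sizes and tested with glmQLFit and glmQLFTest, 2-sided, with Benjamini-Hochberg adjustment over all features. A gene was called at adjusted p below 0.05 and fold change above 1.2, a peak at fold change above 1.5 and mean log2 CPM above 1.5. This was tested on simulated data. Levels are TMM-scaled CPM, over the 22 diet and the 12 transplant libraries apart, divided by exon length (GENCODE M21) where genes are compared. Motifs and promoters came from GRCm38 and RefSeq tables.

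The subunits and lists were chosen with earlier results of these data known. Named genes were all 9 subunits, Kdr and Bmpr1a, called list genes whose mean was 5 CPM or more, and the 5 genes most correlated with Itgb3. Some list genes that were lower or not called are also given with values, such as Cd3d, Cdh5, Cd3e, Il7r, Itgam, Csf1r and Itgb7. Values of 2 listed genes are not reported here. Fold changes are given for Itgb3 and for subunits with an unadjusted p under 0.05. Where nothing says that libraries came from separate animals, p-values measure the spread between libraries. No 2 libraries of a group agreed within sampling noise. Where groups are said not to overlap, the share of all genes without overlap was not counted in any comparison. Replicate numbers did not pair the libraries. DESeq2 1.42.0, other scalings, no filter, a replicate block and leaving out each library were tried.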

Additional observations from a re-analysis of the deposited data

Results flagged for a closer look

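Within groups of 4 libraries, 72 sets of values were examined for a library that stood apart, and chance alone flags about 1 in 20 such sets. In 4 sets a library stood apart by Dixon's criterion. In Double_KdrBmpr Itgb2 reached 112 CPM in replicate 4, where the next library had 61.7. In GFP_Kdr Itga4 was at 129 CPM in replicate 2, where the next library had 176. In the same group Itga5 was at 90.4 CPM in replicate 4 and the other 3 libraries at 98.4. In OAL the highest Itga5 level was 113 CPM and the next 111, a gap of no practical size in a very narrow group.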

How the results depend on the processing

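The counts of subunits called moved by more than 1.5 times in several alternatives. OCR against OAL called 2 of 8, 1 with DESeq2, and 1 to 3 when 1 library was left out. YCR against YAL called 0, but 1 with DESeq2 and 1 with no filter, and so did YCRRF against YCR. Over all genes YCR against YAL called 454 with DESeq2 and 368 with no filter (68 before). For YCRRF against YCR these were 280 and 275 (2 before). OCRRF against OCR called 2, 0 with TMM factors from genes of at least 5 CPM, and 0 to 3 when 1 library was left out. OCRRF against OAL called 2, 0 with those TMM factors, and 0 to 1 when 1 library was left out. The cause was not tested, except that leaving out a library leaves fewer samples. Replicate numbers did not pair libraries (same-numbered deviations correlated from -0.157 to 0.216). With the replicate number as a block OCRRF against OCR and OCRRF against OAL each called 4, Itgal with age lost its call (adjusted p = 0.063), and the other counts stayed within 1.5 times. Over all genes the block called 3437 of 32577 for OCRRF against OCR and 2080 of 31816 against OAL (1110 and 1316 before). In the knockdowns an unadjusted p under 0.05 gave 1 and 2 subunits, and DESeq2 1 for the double knockdown, where it called 332 of all 20072 genes. Itgb3 after Kdr knockdown turned to -0.04 without GFP_Kdr replicate 4 and to -0.10 without GFP_Scramble replicate 2, in a range of -0.10 to 0.41 over all libraries left out. For OCR against OAL Itgb3 stayed between -0.89 and -0.73 and for YCR against YAL between 0.38 and 0.67 in all alternatives run. Itga4 (OCR against OAL), Itga6 and Itga2b (OAL against YAL) passed in each. Of 57 other fold changes, whose unadjusted p was at least 0.05, 25 changed sign in an alternative. With no filter the median of all genes moved by 1.02 for OAL against YAL and by 0.16 for OCRRF against OAL. The ATAC count was 0 in all 12 alternatives. Itgal had 2 to 1172 reads a library, and OCRRF and the transplant controls had 2 libraries each.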
